A study of Mus musculus with 5 samples.

Results

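Nuclear transcripts of 9 transcription factor genes that build and maintain photoreceptors were followed in mouse retina, in nuclei captured with a glial tag (Positive) and in nuclei of the whole retina (Input). The genes were chosen by name from the deposited table: Nrl, Nr2e3, Esrrb, Mef2c and Samd7 as rod factors, Crx and Otx2 as factors shared by rods and cones, and Thrb and Rxrg as cone factors. All 9 were found among the 16422 genes of the table, and all 9 had passed the authors' minimum in both fractions.

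Every animal carried the genotype labelled Aldhl1l-Cre/Ert2+; NuTRAP+ and was given tamoxifen, the Input nuclei as well as the Positive ones, so there was no uninduced or Cre-negative group. The Cre recombinase is activated by tamoxifen and driven by the promoter of Aldh1l1, a gene of astrocytes and Müller glia, and NuTRAP is a Cre-dependent reporter that tags the nuclear envelope with biotin. Each sample was the 2 retinae of 1 animal, dounced into nuclei, cleared of undissociated tissue by a slow spin and either set aside as Input or bound to streptavidin beads as Positive. Animals 12, 40 and 55 each gave a Positive library (n = 3), and animals 40 and 55 also gave an Input library (n = 2). Age, strain, tamoxifen dose or the time after induction was not given in the sources used here. The protocol text opens with brain tissue, although the samples and the homogenised tissue are labelled as retina. The deposited values are on a log2 scale, relative to an Input level set separately for each gene, so that 1 of the Input libraries was at exactly 0 in 97.6% of rows. A value therefore says how a library compared with Input for that gene and nothing of how abundant the transcript was, and the number of reads behind it is unknown.

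Rods and cones arise from retinal progenitors under OTX2, a homeodomain protein that switches on its relative CRX, and CRX then activates the genes of the outer segment in both cell types. In cells that become rods, the leucine zipper protein NRL switches on the orphan nuclear receptor NR2E3, and together with CRX they activate rod genes while NR2E3 represses cone genes. In cones, thyroid hormone receptor beta and its partner RXR gamma set which opsin is made. Rods are by far the most numerous cells of the mouse retina, so a whole-retina nuclear preparation is rich in their RNA.

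A set of 4 stretches of DNA just upstream of a start site is shown, credited to RefSeq on GRCm38.p6, each 250 bases long and ending at the base before the start. Thrb and Nr2e3 are the members whose Positive and Input values did not overlap, and Crx and Otx2 are homeobox relatives that were compared with each other within libraries. Capitals mark every match, on either strand, to TAATCC (reverse complement GGATTA), the core bound by CRX and OTX2, and to 3 further sets of letters described next.
Thrb, chr14:17660710-17660959, plus strand: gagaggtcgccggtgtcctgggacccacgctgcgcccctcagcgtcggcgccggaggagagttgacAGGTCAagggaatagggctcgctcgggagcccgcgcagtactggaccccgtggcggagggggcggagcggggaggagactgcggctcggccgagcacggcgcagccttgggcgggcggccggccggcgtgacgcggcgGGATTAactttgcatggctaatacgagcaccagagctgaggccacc
Nr2e3, chr9:59950080-59950329, minus strand: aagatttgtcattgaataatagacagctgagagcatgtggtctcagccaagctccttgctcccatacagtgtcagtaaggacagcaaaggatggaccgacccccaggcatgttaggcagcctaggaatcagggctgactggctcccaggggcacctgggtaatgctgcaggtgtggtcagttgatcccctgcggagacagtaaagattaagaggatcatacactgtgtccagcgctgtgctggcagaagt
Crx, chr7:15879956-15880205, minus strand: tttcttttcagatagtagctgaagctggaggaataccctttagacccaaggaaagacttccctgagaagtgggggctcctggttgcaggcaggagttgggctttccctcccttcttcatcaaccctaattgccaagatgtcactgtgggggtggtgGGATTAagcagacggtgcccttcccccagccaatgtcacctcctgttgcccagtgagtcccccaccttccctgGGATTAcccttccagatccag
Otx2, chr14:48665110-48665359, minus strand: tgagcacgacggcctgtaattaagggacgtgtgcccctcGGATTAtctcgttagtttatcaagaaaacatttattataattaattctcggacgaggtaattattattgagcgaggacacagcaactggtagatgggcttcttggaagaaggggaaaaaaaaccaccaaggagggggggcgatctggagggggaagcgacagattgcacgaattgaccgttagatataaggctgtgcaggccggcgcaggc

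The Crx window held TAATCC in 2 places, starting 94 and 21 bases before the start site. In the Thrb window shown it began 46 bases before the start, with AGGTCA, the half-site of many nuclear receptors, at 184 bases. That window is 1 of 2 for Thrb, and the other held none of the letters searched. The Otx2 window is 1 of 4 for that gene, shown because it held TAATCC at 211 bases. The Nr2e3 window had none of the letters searched, which says only that they were not in this window. The table held 17 such windows for the 9 genes, a pair of which, at Otx2, overlap each other. TAATCC was present in 4 of the 17, in Samd7, Crx, Otx2 and Thrb, and in 6.25% of the 32851 windows of all genes. TGCTGA, a half-site of MAF-family proteins such as NRL, was in 2 of the 17 and in 16.1% of all windows. AGGTCA was in 4 of the 17 and in 14.0% of all windows. A MEF2 site, searched as CTA, any 4 bases and TAG, was in 0 of the 17 and in 3.20% of all windows. No match overlapped another in these windows. By position, Nrl, Otx2 and Thrb all lie on chromosome 14. In the deposited coordinates, the spans of the 9 genes run from 4689 bases for Otx2 to 377129 bases for Thrb. The Otx2 window shown lies upstream of the deposited span of that gene, so its start site is outside that span.

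In the Positive fraction, transcripts of all 9 factors were at close to the Input level. With no Cre-negative group, the share of this RNA that came from tagged nuclei is unknown. The log2 fold changes of Positive against Input lay between -0.16 for Thrb and 0.090 for Esrrb, with SEs of 0.071 to 0.13. The 95% intervals from limma, a linear model fitted across all genes, together ran from a fall of 21.4% to a rise of 31.8%. None of the 9 passed limma's test at an adjusted p of 0.05, where 0.0% of all genes passed, and their adjusted p-values ran from 0.393 to 0.981. At an unadjusted p of 0.05, 0 of the 9 passed against 14.2% of all genes. The fractions did not overlap in 2 of the 9 genes, Nr2e3 and Thrb, beside 38.5% of all genes. In these nuclei, fewer cells of a type and less RNA per cell cannot be told apart.

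**Figure D1:**
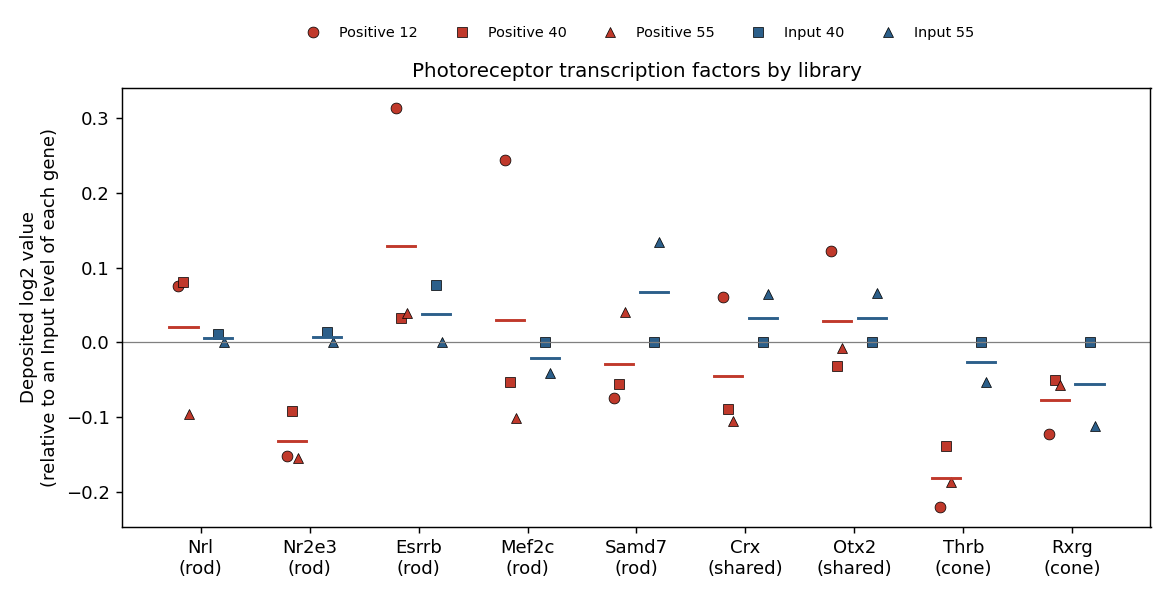
Deposited log2 value (vertical axis, relative to an Input level of each gene) of the 9 factors in each library, with red symbols for Positive, blue for Input, the shape for the animal and a short line for the mean of each fraction. Nr2e3 and Thrb are the 2 genes in which all 3 Positive libraries lie below both Input libraries, and Positive 12 stands highest in Esrrb, Mef2c and Otx2.

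Nrl encodes the leucine zipper protein that commits a cell to the rod fate (Entrez gene 18185, mm10 chromosome 14, 55518978 to 55524981). Its log2 values were 0.075, 0.081 and -0.096 in Positive 12, 40 and 55, and 0.012 and 0 in Input 40 and 55. Positive 12 and 40 lay just above the Input libraries and Positive 55 below them, so the fractions overlapped. The Positive mean was 0.020 ± 0.10 (SD, n = 3) and the Input mean 0.006 ± 0.0084 (SD, n = 2), a log2 fold change of 0.014 (SE 0.090; 95% interval -0.22 to 0.25).

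Nr2e3, the rod nuclear receptor that acts beside NRL and silences cone genes (Entrez gene 23958, chromosome 9, 59942771 to 59950079), was at -0.15, -0.091 and -0.15 in Positive 12, 40 and 55 and at 0.013 and 0 in Input 40 and 55. All 3 Positive libraries lay below both Input libraries. Over all genes, 21.8% had this arrangement and 16.7% had the opposite one, with every Positive library above. The means were -0.13 ± 0.036 (SD, n = 3) and 0.0067 ± 0.0095 (SD, n = 2), and the log2 fold change of -0.14 (SE 0.071; 95% interval -0.32 to 0.045) missed the threshold of limma's test (adjusted p = 0.408). Within animal 40 the difference was -0.10 and within animal 55 it was -0.15.

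Esrrb encodes an orphan nuclear receptor that rods need to survive (Entrez gene 26380, chromosome 12, 86361117 to 86521628). Positive 12 was at 0.31, while Positive 40 and 55 were at 0.033 and 0.039 and Input 40 and 55 at 0.077 and 0. The highest value thus belonged to a single library, and the other Positive values lay between the Input values. The log2 fold change was 0.090 (SE 0.12; 95% interval -0.22 to 0.40), and without Positive 12 it was -0.0023.

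Mef2c, a MADS-box factor present in rods and also in microglia, endothelium and many neurons (Entrez gene 17260, chromosome 13, 83504034 to 83667079), was at 0.24 in Positive 12, -0.053 in Positive 40, -0.10 in Positive 55, 0 in Input 40 and -0.041 in Input 55. Again Positive 12 stood above the other 4 libraries, and Positive 40 and 55 lay below both Input libraries. The log2 fold change was 0.050 (SE 0.13; 95% interval -0.29 to 0.39) and turned to -0.057 without Positive 12. Of 10 endothelial markers 9 were higher on average in Positive, with medians of the deposited value of 0.52 in Positive 12, 0.17 in Positive 40 and 0.50 in Positive 55, against -0.044 and 0 in Input 40 and 55. Of 11 microglial markers 8 were higher on average in Positive, and their medians were 0.16, 0.36 and 0.0028 in Positive 12, 40 and 55 and 0 in both Input libraries. The part of these cells in the Mef2c values was not tested.

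Samd7 encodes a polycomb-associated protein that keeps genes of other cell types off in rods (Entrez gene 75953, chromosome 3, 30746293 to 30767174). It was at -0.074, -0.055 and 0.040 in Positive 12, 40 and 55 and at 0 and 0.13 in Input 40 and 55. Positive 55 lay between the Input libraries and the other Positive libraries below them. The log2 fold change was -0.097 (SE 0.086; 95% interval -0.32 to 0.13), with Input 55 far enough from Input 40 that it was -0.030 without Input 55 and -0.16 without Input 40.

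Among the shared factors, Crx, the homeodomain activator of rod and cone genes that bipolar cells also express (Entrez gene 12951, chromosome 7, 15865947 to 15879955), was at 0.061, -0.090 and -0.11 in Positive 12, 40 and 55 and at 0 and 0.065 in Input 40 and 55. Positive 12 lay between the Input libraries, with the other Positive libraries below both. Its log2 fold change was -0.077 (SE 0.089; 95% interval -0.31 to 0.15), which became -0.13 without Positive 12 and -0.045 without Input 55.

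Otx2, which acts upstream of Crx and is also made by bipolar cells and the pigment epithelium (Entrez gene 18424, chromosome 14, 48658184 to 48662872), was at 0.12, -0.031 and -0.007 in Positive 12, 40 and 55 and at 0 and 0.066 in Input 40 and 55. Its order of libraries resembled that of Crx, with Positive 12 now above both Input libraries. The log2 fold change was -0.0050 (SE 0.086; 95% interval -0.23 to 0.22), and its sign depended on the scaling, being 0.013 after the library medians were set equal.

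Thrb encodes thyroid hormone receptor beta, whose beta-2 form directs medium-wavelength opsin in cones (Entrez gene 21834, chromosome 14, 17660960 to 18038088). The table has 1 row for the gene and does not separate its forms. It was at -0.22, -0.14 and -0.19 in Positive 12, 40 and 55 and at 0 and -0.053 in Input 40 and 55, so all 3 Positive libraries lay below both Input libraries. The means were -0.18 ± 0.041 (SD, n = 3) and -0.026 ± 0.037 (SD, n = 2), which made the log2 fold change -0.16 (SE 0.073; 95% interval -0.35 to 0.036), with an adjusted p of 0.393 from limma. The differences within animals 40 and 55 were -0.14 and -0.13. When the animal entered the fit as a random replicate block, its unadjusted p was 0.0438 and its adjusted p 0.181 in limma, and after quantile normalization the log2 fold change was -0.022.

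Rxrg, the retinoid X receptor that pairs with thyroid hormone receptor in cones and is also found in ganglion cells (Entrez gene 20183, chromosome 1, 167598362 to 167639623), was at -0.12, -0.050 and -0.057 in Positive 12, 40 and 55 and at 0 and -0.11 in Input 40 and 55. The fractions overlapped, since Input 55 lay among the Positive libraries. Its log2 fold change was -0.021 (SE 0.079; 95% interval -0.23 to 0.18), and it was 0.084 after quantile normalization. Of 11 ganglion cell markers, 9 were higher on average in Positive, by a median log2 fold change of 0.25 that was 0.078 after quantile normalization and 0.14 without Positive 40, and their part in the Rxrg values was not tested.

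**Figure D2:**
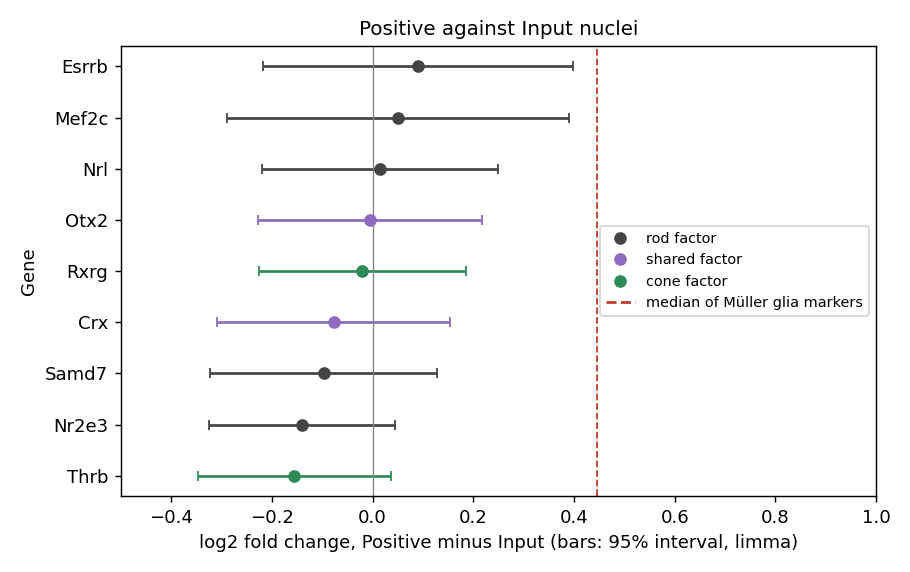
Log2 fold change of each factor, Positive minus Input (horizontal axis), with the 95% interval from limma over 3 Positive and 2 Input libraries, ordered by size. All 9 intervals include 0, and all 9 end below 0.45, the median of the 14 Müller glia markers in the same fit (dashed line). That median was 0.32 after quantile normalization and ran from 0.37 to 0.53 with 1 library left out. The upper limits of Esrrb (0.40) and Mef2c (0.39) shown here lie above 0.32 and 0.37. The markers were chosen with earlier results of these data known, so the line is no independent reference, and it is drawn without an interval.

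Ordered by log2 fold change, the genes ran Thrb, Nr2e3, Samd7, Crx, Rxrg, Otx2, Nrl, Mef2c and Esrrb. Neighbours in this order lay at most 0.057 apart. Each of the 8 neighbouring pairs was compared within libraries, as the difference between the log2 values of its genes. The Positive and Input differences overlapped in all 8. Neighbours were picked by their small gap in log2 fold change, so this overlap was likely in advance and is no separate result. Over all pairs of genes 35.7% did not overlap, and the share over pairs with equally small gaps was not computed. A cone factor stood at the low end and a rod factor at the high end, with another rod factor, Nr2e3, next to the lowest. The medians were 0.014 over the 5 rod factors, -0.041 over the 2 shared factors and -0.088 over the 2 cone factors, beside -0.017 over all genes. This order depended on the processing. After quantile normalization the rod, shared and cone medians were -0.053, -0.066 and 0.031. With 1 library left out, the rod median ran from -0.057 without Positive 12 to 0.072 without Positive 55, the shared median from -0.091 without Positive 12 to -0.0083 without Input 55, and the cone median from -0.13 without Input 55 to -0.047 without Input 40.

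The libraries differed in how they stood to Input. Within animal 40, 8 of the 9 genes were lower in Positive than in Input, where 50.9% of all genes were. Within animal 55 it was 7 of the 9, against 55.7% of all genes. Positive 12, which has no Input partner here, was above the mean of the Input libraries in 5 of the 9, against 48.5% of all genes. Nr2e3, Samd7 and Thrb were lower in all 3 of these comparisons, an arrangement shown by 31.0% of all genes. The SD over the 3 Positive libraries ran from 0.036 for Nr2e3 to 0.19 for Mef2c, with a median of 0.083 for the 9 genes and 0.13 for all genes. The Input libraries differed from each other by 0.012 to 0.13 in these genes.

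A difference between 2 genes of the same library cancels that library's scaling, so factors were also compared in this way. Otx2 minus Crx was 0.061, 0.058 and 0.098 in Positive 12, 40 and 55, and 0 and 0.00059 in Input 40 and 55, where the value in Input 40 is 0 because both genes take that library as their baseline. All 3 Positive libraries thus lay above both Input libraries, by 0.072 on average. Pigment epithelium markers, from a tissue that also makes Otx2, were higher on average in Positive in 9 of 11 genes, by a median log2 fold change of 0.65, led by the melanin enzyme gene Tyrp1 (1.30, SE 0.20) and the visual cycle isomerase gene Rpe65 (1.29, SE 0.25). The markers at the other end were Tyr (-0.13, SE 0.16) and Best1 (-0.22, SE 1.27), which was at -2.84 in Positive 12 and had a log2 fold change of 1.00 without it. The medians of the list were 0.54, 0.80 and 0.47 in Positive 12, 40 and 55 and 0 in both Input libraries. Markers of bipolar cells, which make both factors, were lower on average in 12 of 13 genes, the median log2 fold change being -0.13. The part of either cell type in the difference was not tested.

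Rxrg minus Thrb was 0.098, 0.088 and 0.13 in Positive 12, 40 and 55 and 0 and -0.059 in Input 40 and 55. Thrb thus stood lower relative to Rxrg in every Positive library than in either Input library, by 0.13 on average. Nrl minus Nr2e3 was 0.23, 0.17 and 0.058 in Positive 12, 40 and 55 and -0.0016 and 0 in Input 40 and 55, an average difference of 0.15 within the rod factors. Of the 36 pairs among the 9 genes, 11 (30.6%) had Positive and Input differences that did not overlap, beside 35.7% of all pairs of genes in the table. Of the 15 pairs that include Nr2e3 or Thrb, 8 did not overlap. Nr2e3 and Thrb already had fractions that did not overlap by themselves, so this count is no separate result. The share over comparable pairs of the table was not computed. No test was run on these differences, and an exact permutation test of 3 libraries against 2 cannot go below 0.10.

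The median of the rod factors minus that of the cone factors was 0.25, 0.041 and 0.026 in Positive 12, 40 and 55 and 0.012 and 0.082 in Input 40 and 55. Rod and cone factors were therefore not separated as groups, and the widest gap was in Positive 12. Within the same libraries, the median of the Müller glia markers minus that of the rod factors was 0.36, 0.74 and 0.42 in Positive 12, 40 and 55 and 0.033 and 0 in Input 40 and 55. The Müller list was chosen with earlier results of these data known, so this gap is no independent result.

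**Figure D3:**
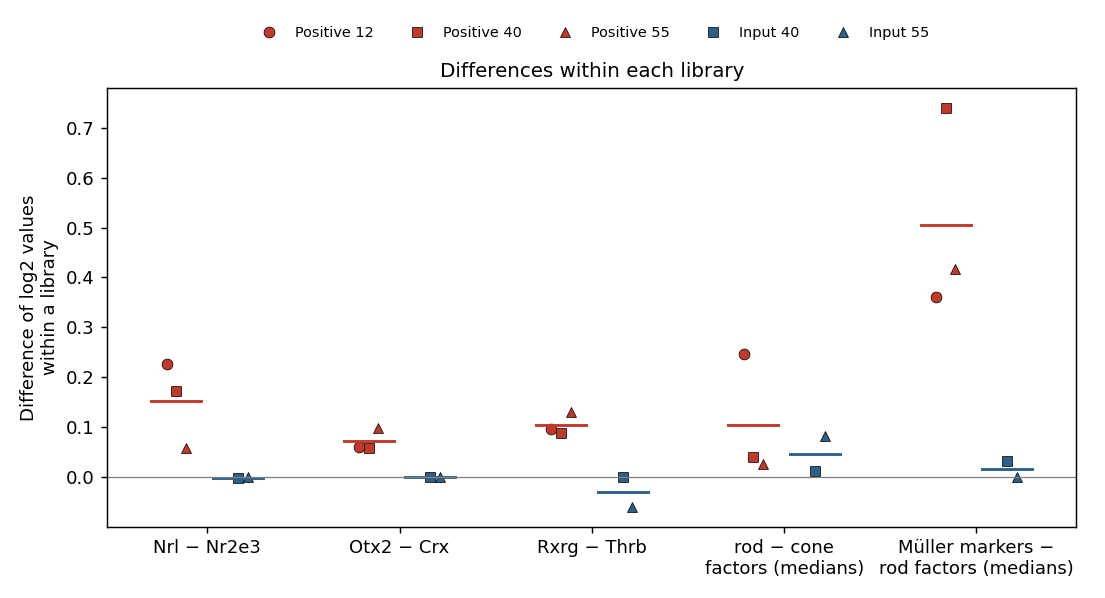
Difference between log2 values of 2 genes, or of the medians of 2 gene lists, within each library (vertical axis), with symbols as in the plot of the factors by library and a short line for the mean of each fraction. The 3 gene pairs and the Müller comparison have all Positive libraries above both Input libraries, whereas the rod and cone medians overlap. The 3 gene pairs drawn are among the 11 of 36 (30.6%) that did not overlap, beside 35.7% of all pairs of genes. Pairs that overlapped, such as Crx minus Thrb, Crx minus Nr2e3 and Crx minus Nrl, are not drawn. Nrl minus Nr2e3 and Rxrg minus Thrb each hold a gene whose fractions did not overlap by themselves.

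Relatives of the 9 factors were read next. Of 14 measured paralogs, 8 gave a positive value and 6 a negative one, the median log2 fold change being 0.054, and 0 were called over all genes. Mef2d, the MEF2 gene that rods depend on, had a log2 fold change of -0.24 (SE 0.082), with all 3 Positive libraries below both Input libraries, and Samd11, the partner of Samd7 in polycomb silencing, had -0.24 (SE 0.092) in the same arrangement. Mef2a had -0.054 and Mef2b -0.33 (SE 0.25). Thra, the sister gene of Thrb, had 0.083 and the widely expressed receptor gene Rxra had 0.044, both with every Positive library above both Input libraries, while Rxrb had -0.085. Of the 14 paralogs, 2 (14.3%) lay wholly below Input and 2 (14.3%) wholly above, beside 21.8% and 16.7% of all genes. Nr2e1, the relative of Nr2e3 found in retinal progenitors and glia, had 0.32 (SE 0.18), from values of 0.41, 0.51 and -0.037 in Positive 12, 40 and 55. Among MAF genes, Maf had 0.26 and Mafa -0.23, and among estrogen-related receptors Esrrg had 0.15 and Esrra 0.071. Of these paralogs Otx1 had the largest value, 1.25, but with an SE of 0.97 and libraries from -1.76 to 1.60. After quantile normalization the signs of Esrra, Esrrg, Thra and Rxra turned, and the median of the paralogs was -0.020. Without Positive 55 that median was 0.021, without Input 40 it was 0.033 and without Positive 40 it was 0.036.

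Other regulators of photoreceptor development gave 6 positive and 13 negative log2 fold changes among 19 measured genes, with a median of -0.021 and 0 called. The median was -0.067 without Input 40, 0.032 without Input 55, -0.034 without Positive 40 and -0.042 without Positive 55. Tbx2, which directs the short-wavelength cone fate, had -0.29 (SE 0.13), with all Positive libraries below both Input libraries. Rax, a homeobox gene of progenitors and Müller glia, had 0.17 (SE 0.084) and Nr1d2, a clock receptor gene, had 0.089 (SE 0.082), each with all Positive libraries above. In the list, 6 of 19 genes lay wholly below Input and 2 wholly above, beside the shares of 21.8% and 16.7% over all genes.

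Genes that rod factors activate gave log2 fold changes from -0.18 to 0.18. Of 26, 12 were positive and 14 negative, with a median of -0.024 and 0 called. The largest were Gnb1, a transducin subunit gene, at 0.18 (SE 0.13) and Cnga1, a subunit of the cyclic nucleotide-gated channel of rods, at 0.18 (SE 0.12). The lowest were Gucy2e, a guanylate cyclase gene, at -0.18 (SE 0.074) and Abca4, the retinoid flippase gene, at -0.17 (SE 0.083). In 7 of the 26 (26.9%) all Positive libraries lay below both Input libraries, beside 21.8% of all genes, and in 1 (3.85%) all lay above, beside 16.7%. The median ran from -0.044 without Positive 12 to 0.0096 without Positive 55.

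Cone genes were spread more widely, between -0.46 and 0.63 over 16 genes, with a median of -0.044, 7 positive, 9 negative and 0 called. That median was 0.039 without Input 40, -0.12 without Input 55, -0.0057 without Positive 12, -0.16 without Positive 40 and 0.0029 without Positive 55. In 5 of the 16 (31.25%) all Positive libraries lay below both Input libraries, beside 21.8% of all genes. In 1 (6.25%) all lay above, beside 16.7%. The cone genes also scattered more between libraries. Their SD over the Positive libraries had a median of 0.21, beside 0.11 for the genes that rod factors activate. Arr3, the cone arrestin gene, was at -0.63, -0.36 and -0.38 in Positive 12, 40 and 55 and at 0 and 0.010 in Input 40 and 55, so the log2 fold change was -0.46 (SE 0.11), with an adjusted p of 0.331 from limma. Ccdc136, a gene enriched in cones, had -0.32 (SE 0.087). At the other end stood the protocadherin gene Pcdh20 (0.63, SE 0.19) and Pde6h, the inhibitory subunit of the cone phosphodiesterase (0.32, SE 0.26). Opn1mw, the opsin gene that thyroid hormone receptor beta activates, had 0.024 (SE 0.21), and Opn1sw, the short-wavelength opsin gene, had -0.13 (SE 0.15), both with overlapping fractions.

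**Figure D4:**
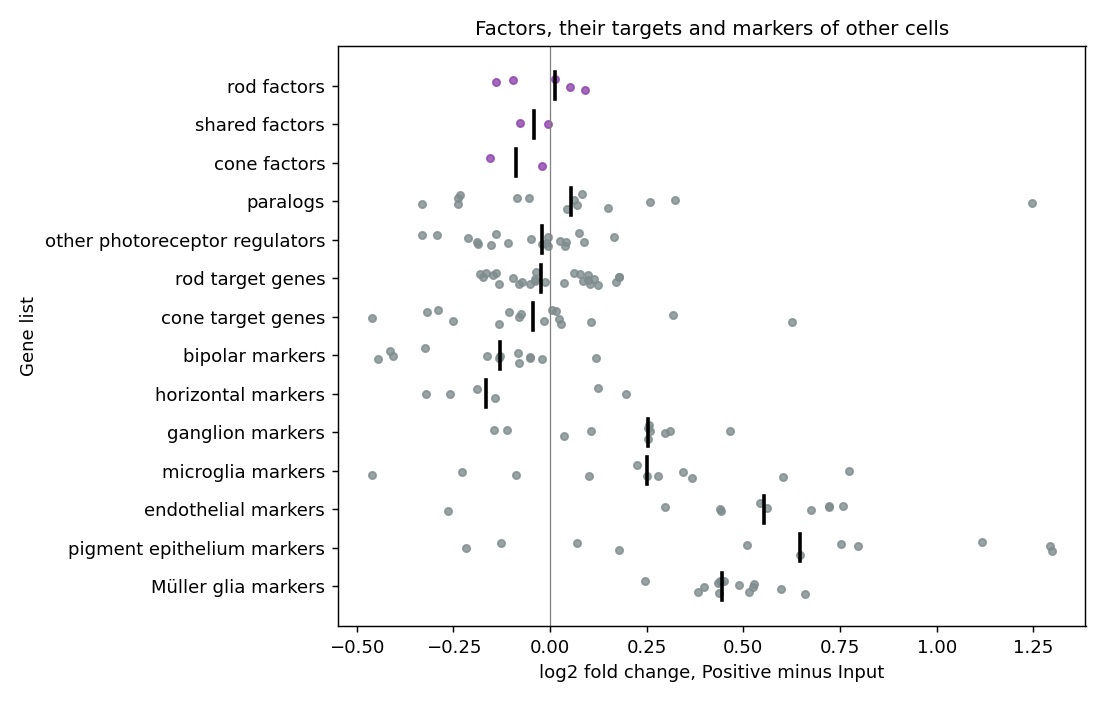
Log2 fold change, Positive minus Input (horizontal axis), of each gene in the factor groups, their paralogs, other regulators, rod and cone target genes and markers of other retinal cells, with 1 point per gene and a black line at the median of each list. Factors and rod targets cluster around 0, between -0.18 and 0.18, while the medians of the Müller glia, endothelial and pigment epithelium markers lie between 0.45 and 0.65.

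The check of the captured fraction against its label rests on glial markers. All 14 Müller glia markers were higher on average in Positive, by log2 fold changes from 0.25 for the carbonic anhydrase gene Car14 to 0.66 for the Notch target Hes1, with Crym at 0.38 and the apolipoprotein gene Apoe at 0.60, and all 14 had every Positive library above both Input libraries, beside 16.7% of all genes. None of the 14 passed the adjusted threshold. The markers were chosen with earlier results of these data known, so their count above Input is not an independent check of the label. Endothelial markers had a median of 0.55, from -0.26 for Esam to 0.76 for Cldn5, with Flt1 at 0.30 and Tie1 at 0.72. Microglial markers ran from -0.46 for Aif1 and -0.23 for C1qb to 0.60 for C1qc and 0.77 for Ctss. Bipolar markers were lowest in Gpr179 (-0.44) and Grm6 (-0.41) and highest in Scgn (0.12). Horizontal cell markers had a median of -0.17, which was -0.031 after quantile normalization and -0.042 without Positive 12, and ran from -0.32 for Onecut2 and -0.26 for Prox1 to 0.12 for Lhx1 and 0.20 for Calb1, and ganglion cell markers ran from -0.15 for Isl2 and -0.11 for Pou4f2 to 0.31 for Thy1 and 0.47 for Tubb3.

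Genes next to the factors were looked up after the values were known. Within 10 kb, the table held 1 neighbour each for Nrl, Nr2e3, Crx and Otx2, all on the opposite strand and none overlapping the factor in the deposited coordinates. In GENCODE's wider gene models the spans of Otx2os1 and Gm7616 do overlap those of Otx2 and Nr2e3, and with no statement on strand their reads may not be separable. Otx2os1, a noncoding gene that starts 6416 bases from Otx2, was at 0.37, 0.067 and 0.078 in Positive 12, 40 and 55 and at 0.13 and 0 in Input 40 and 55. Positive 12 was the highest library in it, as in Otx2. Crxos1, 2662 bases from Crx, was at 0.092, -0.35 and -0.10 in Positive 12, 40 and 55 and at 0.010 and 0 in Input 40 and 55, so Positive 12 was above and the other Positive libraries below Input, whereas in Crx Positive 12 lay between the Input libraries. Cpne6, a copine gene 1547 bases from Nrl, stood at -0.47 on the same measure (SE 0.16), with an adjusted p of 0.338 from limma, while Nrl had 0.014. Gm7616, 1215 bases from Nr2e3, had -0.029 (SE 0.14).

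The gene with the most similar pattern to each factor was found by the Euclidean distance between mean-centred log2 values over the 5 libraries. Nearest to Nrl was Psmd8 (distance 0.019), to Nr2e3 Riok2 (0.024), to Samd7 Tgfbrap1 (0.023), to Crx Sp1 (0.015), to Otx2 Hipk1 (0.015) and to Thrb Pa2g4 (0.028). Asrgl1 was nearest to both Esrrb (0.040) and Mef2c (0.055). For Rxrg it was a row whose symbol had become a date in the deposited table and whose Entrez gene 52398 is Septin11 in RefSeq (0.023). Among the factors themselves, Nr2e3 and Thrb were each other's nearest at 0.042, Esrrb and Mef2c at 0.073, and Crx and Otx2 at 0.085. The first pair is a rod and a cone factor, the second 2 rod factors and the third the 2 shared factors.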

How the data were processed

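Per the labels, nuclear RNA of Positive and Input fractions was sequenced, and the authors deposited 1 table of normalized log2 values for the 5 libraries, with 0 columns of other samples. Per the file headers, the authors used RefSeq genes and dropped a row unless all libraries of 1 condition or of both reached a raw value of 5. Per the submitters' processing notes, the build was mm10 and DESeq was used. The aligner, the counter or its use of strand was not given in the sources used here. The base of the logarithm was checked on the Input libraries: 172 genes differed by a ratio of whole numbers from 3 to 12, to within 1e-05, when read as log2, against 7 as natural log and 30 as log10. Depth is unknown, so no counting interval is given and no count model was used.

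The fractions were compared with limma 3.58.1 (R 4.3.3), without a trend or block, with 3 residual degrees of freedom and p-values adjusted by Benjamini-Hochberg across 16422 genes, keeping 1 row for each symbol. Tests were two-sided and called genes under an adjusted p of 0.05, and the code was tested on simulated data. Positive 40 and Input 40 are fractions of 1 animal, as are Positive 55 and Input 55, per the labels, and Positive 12 has no partner here. Across genes, the deviations of the paired libraries from their group means correlated at 0.174 (animal 40) and 0.195 (animal 55). With the animal as a random block (consensus correlation 0.514) limma called 11 genes, 0 of them among the 9 factors, and with a fixed block 0. The factors and gene lists were chosen with earlier results of these data known. Named were the 9 factors, all their paralogs, the 2 highest and 2 lowest genes of each other list and the nearest gene by pattern, while Opn1mw, Opn1sw and the neighbouring genes were named after their values were seen. Some genes that the rule would name are not reported here, though list counts and medians include them. Of the listed genes, 1 was not in the table (Phc1). Alternatives were quantile normalization, equal library medians, a mean-variance trend, a robust prior, only genes that passed in both conditions, both blocks and leaving out each library. Promoter windows are those of RefSeq for GRCm38.p6, matched by symbol for all 9 factors, with the 250 bases before each start used.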

Additional observations from a re-analysis of the deposited data

How the results depend on the processing

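Under the 12 other settings 0 of the 9 factors passed limma's adjusted threshold, the lowest adjusted p being 0.181, and Nr2e3, Samd7, Crx and Thrb had a negative log2 fold change in every setting. Not all of these settings can change a sign. The trend, the robust prior and the filter on both conditions leave the log2 fold change of a factor as it was. The fixed block gives the same log2 fold change as leaving out Positive 12. How many of all genes kept their sign was not counted. The random replicate block (animal) called 11 genes over the table, 4 higher and 7 lower, instead of 0, and put 1 factor, Thrb, past an unadjusted p of 0.05. The 2334 genes at that p became 4305 with this block, 1264 after quantile normalization and 930 to 3188 when a library was left out. Quantile normalization acts on columns in which an Input library is at 0 by construction in most rows, and the cause of its changes was not tested. It gave log2 fold changes of -0.053 for Nrl, -0.014 for Esrrb, 0.084 for Rxrg, -0.0056 for Esrra, -0.017 for Esrrg, -0.010 for Thra, -0.023 for Rxra, -0.016 for Pde6h, -0.00044 for Scgn, 0.014 for Tyr, 0.028 for Isl2 and 0.060 for Pou4f2, a cone median of 0.031, an Otx2 minus Crx difference of 0.050 and an Rxrg minus Thrb difference of 0.11. Equal library medians gave 0.013 for Otx2. The fixed replicate block, which takes Positive 12 out of the contrast, gave -0.013 for Nrl, -0.0023 for Esrrb, -0.057 for Mef2c, 0.0024 for Rxrg and 1.00 for Best1, and the random replicate block gave -0.0046 for Mef2c and 0.41 for Best1. No other call changed with a block.

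With 1 library left out, the log2 fold changes ran from -0.016 to 0.072 for Nrl, from -0.0023 to 0.14 for Esrrb, from -0.057 to 0.12 for Mef2c, from -0.052 to 0.028 for Otx2, from -0.13 to -0.045 for Crx and from -0.076 to 0.035 for Rxrg. They ran from -0.56 to 0.090 for Mafa, from -1.01 to 1.00 for Best1, from -0.30 to 0.012 for Isl2 and from -0.38 to 0.16 for Pou4f2. The cone median ran from -0.13 to -0.047 and Rxrg minus Thrb from 0.11 to 0.16. Where 1 Input library was left, it was assumed to vary as the Positive libraries did.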
